A study of Mus musculus with 21 samples.

Results

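The genes described here were those at less than or equal to 0.5 times their wild-type level in both single knockouts of the cohesin accessory subunits PDS5A and PDS5B. Counts were scaled to CPM, the count of a gene divided by the total count of its library and multiplied by 1000000. A gene was a member when it had at least 2 CPM in each WT siGLO library and when its mean CPM in Pds5a-KO siGLO and in Pds5b-KO siGLO mESCs were each at most 0.5 times the WT siGLO mean. Symbols beginning with Sept, Hox or Pcdh, and the genes Herc6, Nanog and Fgf8, were left out by the rule, which removed 3 genes that passed both ratios. Of 23412 genes in the files, 11609 reached 2 CPM in each WT siGLO library, 250 of the eligible genes passed the ratio in Pds5a-KO, 287 passed it in Pds5b-KO, and 115 passed both and were members.

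The cells were male v6.5 mESCs, an embryonic stem cell line of the mouse, and RNA-seq covered 7 conditions of 3 libraries, taken 48 h after transfection with 50 nM siRNA. WT mESCs received siGLO, a transfection control, or siPds5b. Pds5b-KO mESCs received siGLO, and Pds5a-KO mESCs received siGLO, siPds5b, siStag1 or siStag2, so that every siRNA against Stag1 or Stag2 was given on a Pds5a-KO background. Each knockout was 1 CRISPR/Cas9 clone, whose 3 libraries are replicates of that clone. Differences between clones therefore cannot be told apart from effects of the deleted gene, and the 4 Pds5a-KO conditions all share 1 clone.

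PDS5A and PDS5B are paralogous proteins that bind the cohesin ring, which holds sister chromatids together and extrudes chromatin loops, and both take part in its release from chromatin and in the acetylation of its SMC3 subunit. STAG1 and STAG2 are alternative subunits of the same complex. Naive mESCs express a network of transcription factors that includes TFCP2L1, ESRRB and TBX3. A small fraction of the cells in such a culture passes through a 2-cell-like state, in which genes of zygotic genome activation, the Zscan4 cluster among them, are transcribed for a short time.

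Library totals lay between 17311090 and 23989198 counts. The mean Pds5b level was 34.8% of WT siGLO in WT siPds5b, 12.4% in Pds5b-KO siGLO and 41.6% in Pds5a-KO siPds5b. Stag1 was at 23.3% with siStag1 and Stag2 at 26.1% with siStag2. Pds5a was at 84.0% in Pds5a-KO siGLO, and since the edits lie at 1 exon and its following intron and leave the other exons countable, this level does not check the genotype. The summed level of 10 mESC markers (Pou5f1, Sox2, Zfp42 and others) was 7125 to 7944 CPM over the WT libraries. It was lower in every knockout library, at 6152 to 6869 CPM in Pds5a-KO siGLO and 6021 to 6718 CPM in Pds5b-KO siGLO. With siPds5b, siStag1 and siStag2 in Pds5a-KO mESCs it was 5678 to 6366, 6143 to 6508 and 5156 to 5724 CPM. By the edgeR test described below, 4 of the 10 were lower and 1 higher in Pds5a-KO siPds5b than in WT siPds5b. Over all genes tested, 14.3% were lower and 16.3% higher. In WT mESCs, replicate 1 stood apart for some members: in both WT siGLO and WT siPds5b, Apln, Crb2, Fgf5, T, Wnt3 and Wnt8a were at no more than 0.5 times the lower of the other replicates, which is 6 of 115 members against 18 of 11609 genes at this level (0.155%). For T, Wnt3 and Wnt8a, replicate 1 was also the lowest library in Pds5a-KO siGLO, Pds5b-KO siGLO and Pds5a-KO siPds5b. Values without WT siPds5b replicate 1 are given below for counts of members and for some of the members named, not for all whose values shift. That omission keeps replicate 1 of the knockouts, so it does not balance the conditions.

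In the knockouts that chose them, members stood at a median of 31.8% of the WT siGLO mean in Pds5a-KO siGLO and 31.9% in Pds5b-KO siGLO. These values are a description, since the rule set them. The members just inside the threshold were Mapt, Plagl1, Myo1f, Crb2 and Rapgef3, whose higher ratio lay between 0.491 and 0.498. The genes just outside it were Hal, Lrrc34, Tap2, Eomes and Gbp2, at 0.501 to 0.506. The highest WT siGLO levels belonged to Tfcp2l1, Vim, Pim2, Tbx3, Ooep, Tcl1, Inhbb, Cd59a, Myo1f, Slc39a8, Pla2g1b, Mras, Zscan4a, Zscan4c and Mapt, in that order on a scale of CPM that is not corrected for gene length. Positions were found for 113 members in GENCODE M21 and for 1 more in RefSeq, both on mm10 (GRCm38), and 106 were protein coding.

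The deepest loss was that of Klhl4, a kelch-like gene on the X chromosome, and of Gpr37, an orphan G protein-coupled receptor. Klhl4 had between 422 and 483 counts in the WT siGLO libraries. It had 0 counts in each Pds5a-KO siGLO library, at least 430-fold lower than WT siGLO when a floor of 3 counts over the 3 libraries is used. It had 1 count in all in the 3 Pds5b-KO siGLO libraries. Gpr37 had 72 to 118 counts per WT siGLO library, 2 counts in all in Pds5a-KO siGLO and 3 in all in Pds5b-KO siGLO. Both genes stayed near 0 in the other Pds5a-KO conditions, where Klhl4 had 7, 1 and 2 counts in all with siPds5b, siStag1 and siStag2, and Gpr37 had 5, 6 and 3. In WT siPds5b the counts were 287 to 370 per library for Klhl4 and 29 to 50 for Gpr37. No other member had 3 counts or fewer in each library of a knockout.

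Knockdown of Pds5b in WT mESCs left most members near their WT siGLO level. The median member was at 94.8% of the WT siGLO mean in WT siPds5b, 93 of 115 were at 80% or more and 0 were at 50% or less, with Gpr37 lowest at 52.1%. Over the 11609 genes, the median was 99.4% and 4 were at 50% or less. The WT siGLO libraries were used to choose the members, so no test was made here. In Pds5a-KO mESCs the median was 29.8% with siPds5b, 27.4% with siStag1 and 23.1% with siStag2. With siStag1, 105 members were at 50% or less and 1, Fkbp6, was at 80% or more. With siStag2 the numbers were 104 and 0. With siPds5b, 82 were at 50% or less and 14 were at 80% or more. Over the 11609 genes, 387, 310 and 351 were at 50% or less with siPds5b, siStag1 and siStag2. The 14 were Gm2016, Gm5662, Gm8300, Gm8994, Usp17lc, Zscan4c, Zscan4d and Zscan4f, which belong to the 2-cell-like list, and Il34, Irgm2, Mup6, Pim2, Plagl1 and Rgs17.

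**Figure D1:**
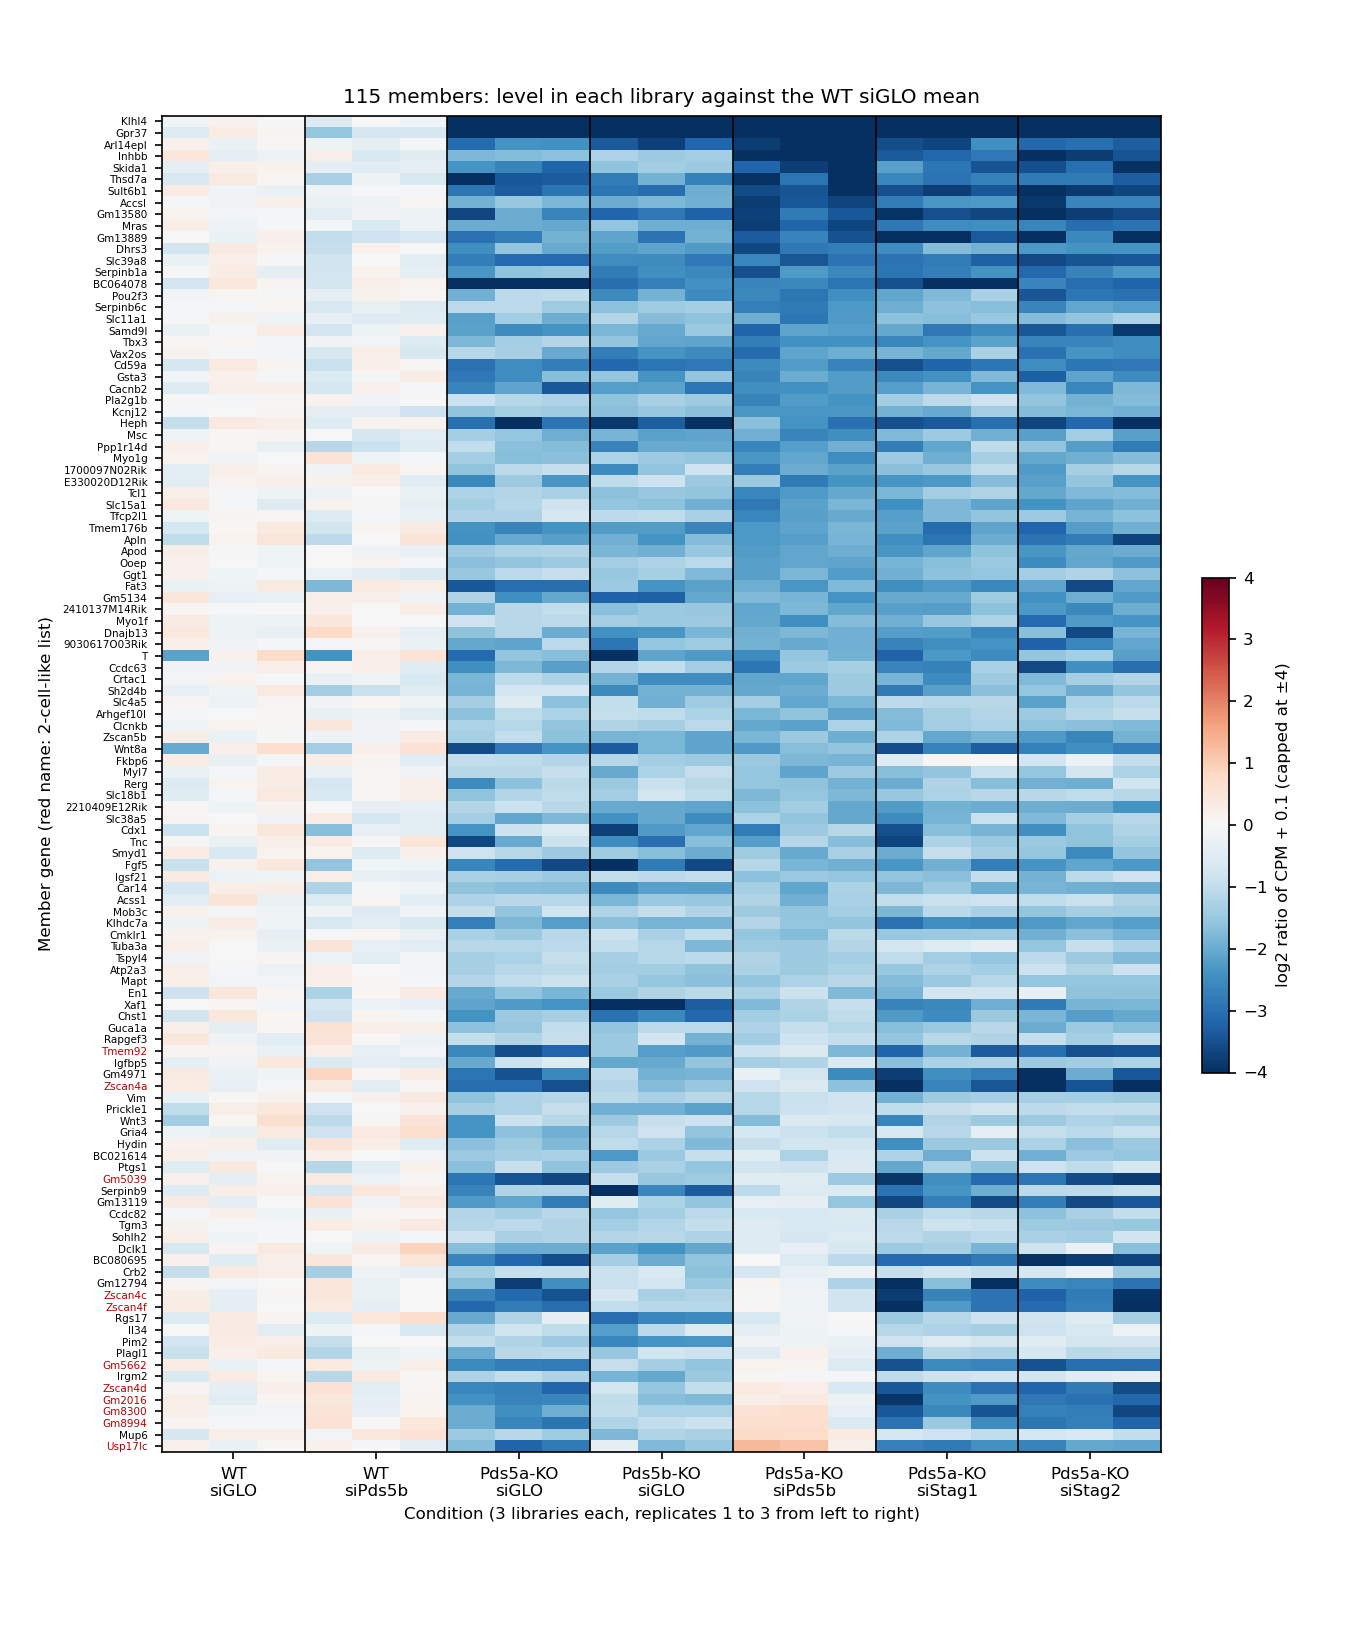
Colour shows the log2 ratio of each library's CPM to the WT siGLO mean (0.1 CPM added to both) for the 115 members in rows, ordered by their mean level in Pds5a-KO siPds5b, and the 21 libraries in columns, with 2-cell-like genes named in red. The WT columns are pale, the Pds5a-KO siGLO and Pds5b-KO siGLO columns are blue because the rule chose them so, and in the Pds5a-KO siPds5b columns most 2-cell-like genes are pale or red while they are blue with siStag1 and siStag2.

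In 6 libraries that the rule did not use, Pds5a-KO siPds5b was compared with WT siPds5b. Both sides received siPds5b, so this tests the Pds5a-KO genotype under Pds5b knockdown and not the loss seen with siGLO. edgeR's quasi-likelihood test was fitted to all 14963 genes that passed its filter on low counts, with Benjamini-Hochberg adjustment and calls at an adjusted p under 0.01. All 115 members passed the filter. In this comparison 80 members were lower and 0 were higher, where 14.3% of all genes tested were lower and 16.3% were higher. DESeq2 called 83 lower and 0 higher, and at an unadjusted p under 0.05 edgeR counted 96 lower and 1 higher. The 14.3% and 16.3% are shares by edgeR at an adjusted p under 0.01. Shares for these other settings are not given. The median log2 fold change of the members was -1.58, against -0.00 over all genes tested. Every Pds5a-KO siPds5b library lay below every WT siPds5b library for 89 members, against 27.0% of the 11609 genes. The corresponding numbers with siStag1 and siStag2 were 103 and 104 members, against 24.7% and 27.5%. Without WT siPds5b replicate 1, an omission chosen after the data were seen, the counts were 102, 113 and 112 members, against 30.9%, 30.0% and 31.4%. Leaving out a WT library can only keep or raise such counts and shares, so their rise is not a check. The Pds5a-KO libraries come from the clone the rule used. The libraries of Pds5b-KO mESCs were all used by the rule, so the loss in Pds5b-KO was not tested.

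**Figure D2:**
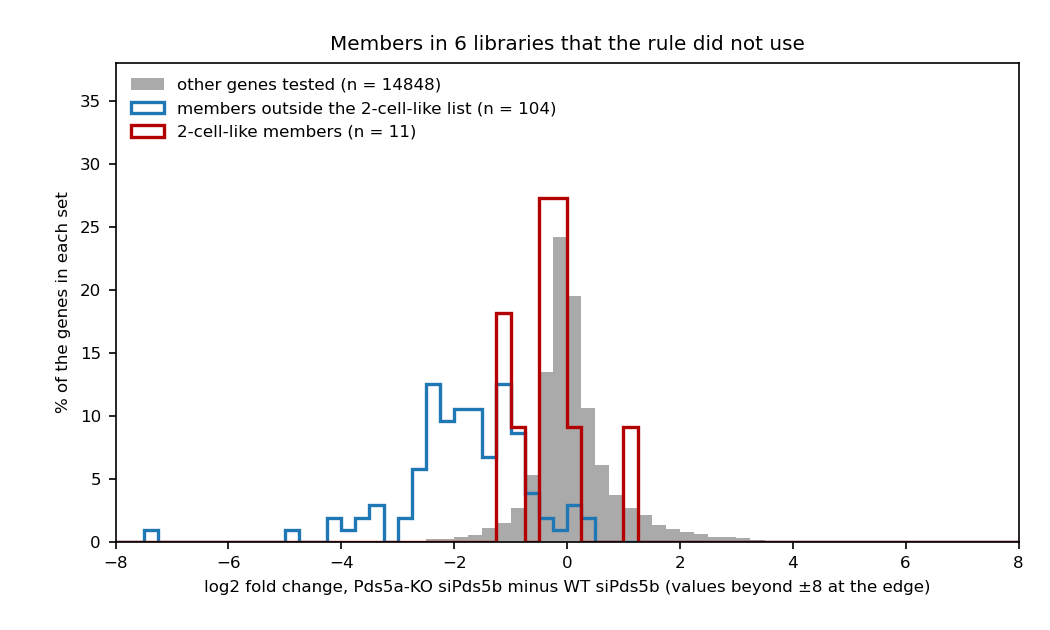
The share of genes in each bin of 0.25 on the log2 scale is plotted against the log2 fold change between Pds5a-KO siPds5b and WT siPds5b, for 104 members outside the 2-cell-like list (blue), 11 members on it (red) and the other genes tested (grey). The blue distribution lies to the left with a median of -1.77, while the red one lies close to the grey, with a median of -0.27.

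The 5 members with the largest decrease in this comparison were Klhl4, Gpr37, Arl14epl, Inhbb and Sult6b1. Klhl4 fell by 7.25 on the log2 scale (SE 0.39, adjusted p = 6.52e-12 by edgeR) and Gpr37 fell by 4.76 (SE 0.55). Arl14epl had 15.3, 13.7 and 17 CPM in WT siPds5b and 1.18, 0.693 and 0.618 CPM in Pds5a-KO siPds5b, and fell by 4.21 (SE 0.28). Sult6b1, a sulfotransferase, had 9.43, 10.0 and 9.87 CPM against 0.772, 0.853 and 0.463 CPM, and fell by 3.83 (SE 0.29). None of these groups of 3 libraries overlapped.

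The 35 members that were not called included all 11 members of the 2-cell-like list. Among the others were Pim2, a serine/threonine kinase, Plagl1, an imprinted zinc finger gene, Prickle1, a planar cell polarity gene, Serpinb9, an inhibitor of granzyme B, and the Wnt and primitive streak genes T, Wnt3, Wnt8a and Cdx1. Pim2 had 90.9, 178 and 180 CPM in WT siPds5b and 161, 153 and 145 CPM in Pds5a-KO siPds5b, so the groups overlapped, with a log2 fold change of -0.01 (SE 0.26), and of -0.26 without WT siPds5b replicate 1. In Pds5a-KO siGLO it had 88.9, 76.5 and 64.7 CPM, and in Pds5b-KO siGLO 28.5, 33.9 and 35.2 CPM. Without WT siPds5b replicate 1, 83 members were lower: Ccdc82, En1, Fgf5, Prickle1, Sh2d4b, T and Wnt8a were gained, and Hydin, Slc38a5, Sohlh2 and Tnc were lost.

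The members of the 2-cell-like list were Zscan4a, Zscan4c, Zscan4d and Zscan4f, a zinc finger and SCAN domain family on chromosome 7, Gm2016, Gm5039, Gm5662 and Gm8300, which neighbour each other on chromosome 12, Gm8994 (Eif4a3l1 in RefSeq), Tmem92 and Usp17lc, a deubiquitinating enzyme gene. Zscan4c lies at chr7:11005745-11010547 on the plus strand, Zscan4d at chr7:11161374-11166159 on the minus strand and Zscan4f at chr7:11397915-11402318 on the plus strand. The promoters of these genes and of Usp17lc are shown because the 4 genes moved together between conditions. Each run below is the RefSeq window on GRCm38.p6, read 5′ to 3′ on the gene's strand, from 250 bases before to 50 bases after the annotated start, with TATAAA in capitals. The windows are chr7:11005495-11005794, chr7:11166099-11166398, chr7:11397665-11397964 and chr7:103416446-103416745.
Zscan4c: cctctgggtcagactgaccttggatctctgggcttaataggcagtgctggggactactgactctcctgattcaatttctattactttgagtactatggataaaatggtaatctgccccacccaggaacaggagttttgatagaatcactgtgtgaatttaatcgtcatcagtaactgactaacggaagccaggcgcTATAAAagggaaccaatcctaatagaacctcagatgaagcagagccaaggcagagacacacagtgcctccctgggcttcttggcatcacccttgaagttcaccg
Zscan4d: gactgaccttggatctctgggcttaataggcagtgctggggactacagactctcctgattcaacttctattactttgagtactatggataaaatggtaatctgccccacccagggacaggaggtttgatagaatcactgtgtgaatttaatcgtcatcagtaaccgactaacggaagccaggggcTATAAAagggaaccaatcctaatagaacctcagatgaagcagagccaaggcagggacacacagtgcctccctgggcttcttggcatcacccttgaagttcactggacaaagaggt
Zscan4f: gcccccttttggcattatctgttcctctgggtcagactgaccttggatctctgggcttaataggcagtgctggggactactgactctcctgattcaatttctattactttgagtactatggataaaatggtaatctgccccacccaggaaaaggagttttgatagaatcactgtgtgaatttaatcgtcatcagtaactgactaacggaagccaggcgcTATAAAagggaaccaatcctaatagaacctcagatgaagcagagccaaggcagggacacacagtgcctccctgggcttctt
Usp17lc: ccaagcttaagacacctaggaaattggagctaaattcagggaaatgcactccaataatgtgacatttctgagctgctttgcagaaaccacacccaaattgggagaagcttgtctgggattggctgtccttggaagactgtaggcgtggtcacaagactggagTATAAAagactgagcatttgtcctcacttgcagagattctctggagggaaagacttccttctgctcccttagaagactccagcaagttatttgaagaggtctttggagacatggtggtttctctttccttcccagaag

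The capitals begin 54, 65 and 31 bases before the RefSeq start in Zscan4c, Zscan4d and Zscan4f and 88 bases before it in Usp17lc. For Zscan4d that start lies inside the span given above, which is from GENCODE, so the distance from the GENCODE start is shorter. The windows of the Zscan4 genes were 97.4% to 99.3% identical where they aligned, over 266 to 287 bases, and the Usp17lc window aligned to them over 22 to 39 bases. TATAAA was searched on the gene strand and chosen after these sequences were seen. It was in 12 of 83 members with a window (14.5%) and in 9.77% of 27025 genes with one, expressed or not. Because family members share sequence, the counts of single copies are uncertain: of the 11 genes, 9 shared 20% or more of their 50-base stretches with other genes, with a median of 49.6% over the 11, while 7 of 102 other members did.

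The summed level of the 11 genes was 192, 132 and 167 CPM in WT siGLO and 221, 130 and 171 CPM in WT siPds5b. It was 24.7, 20.7 and 17.9 CPM in Pds5a-KO siGLO and 86.8, 59.7 and 65.9 CPM in Pds5b-KO siGLO. It was 166, 161 and 91.5 CPM in Pds5a-KO siPds5b, in the range of WT mESCs in 2 of 3 libraries, and 11.5 to 28.6 CPM over the 6 libraries with siStag1 or siStag2. As a share of the WT siGLO mean, the median of the 11 genes was 13.9% in Pds5a-KO siGLO, 44.2% in Pds5b-KO siGLO, 95.3% in Pds5a-KO siPds5b, 12.9% with siStag1 and 10.6% with siStag2. In bulk RNA, fewer cells in a state and less RNA per cell cannot be told apart.

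In the 6 libraries with siStag1 and siStag2, all 11 genes stayed low, and all 11 were higher with siPds5b than with siStag1 and than with siStag2 in Pds5a-KO mESCs, where 3.83% and 2.04% of all genes tested were higher. Zscan4c had 30.7, 28.1 and 17.7 CPM with siPds5b, 2.12, 4.79 and 3.89 CPM with siStag1 and 3.17, 4.39 and 1.94 CPM with siStag2, with no overlap. Its log2 fold change was 2.81 (SE 0.34, adjusted p = 4.06e-05 by edgeR) against siStag1 and 3.00 (SE 0.35, adjusted p = 4.31e-05 by edgeR) against siStag2. Usp17lc had 8.54, 7.57 and 3.96 CPM with siPds5b and no more than 0.751 CPM in any library with siStag1 or siStag2. It had the largest log2 fold change against siStag1, 3.82 (SE 0.42). Gm8300 had 12, 12.6 and 6.44 CPM with siPds5b, 0.673, 1.28 and 0.649 CPM with siStag1 and 1.16, 1.10 and 0.562 CPM with siStag2, with log2 fold changes of 3.55 (SE 0.31) and 3.44 (SE 0.31). The smallest increases among the 11 members were those of Tmem92, 1.79 (SE 0.40) and 2.57 (SE 0.44). The call of Tmem92 against siStag1 was lost on leaving out siPds5b replicate 1 or 2 or siStag1 replicate 1 or 3, at log2 fold changes of 1.5 to 1.7.

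Against WT siPds5b, 0 of the 11 genes were called higher or lower in Pds5a-KO siPds5b by edgeR, 4 had an unadjusted p under 0.05, and DESeq2 called 0. Their log2 fold changes ran from -1.04 for Tmem92 to 1.01 for Usp17lc. Usp17lc had 3.82, 3.25 and 2.64 CPM in WT siPds5b, below every Pds5a-KO siPds5b library (adjusted p = 0.0153 by edgeR), and was called higher without Pds5a-KO siPds5b replicate 3, at 1.28. Zscan4a was called lower without WT siPds5b replicate 2, at -1.23, and Tmem92 without Pds5a-KO siPds5b replicate 2, at -1.30. A miss of the threshold does not show equal levels: the SE of the 11 genes was 0.21 to 0.33.

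Of 37 genes on the list, 32 passed the filter and 21 of these were not members. Of the 21, 20 were higher with siPds5b than with siStag1 and 19 were higher than with siStag2, where 3.83% and 2.04% of all genes tested were higher, and 0 were lower by edgeR. Against WT siPds5b, the 21 had a median log2 fold change of 0.21 in Pds5a-KO siPds5b. Of the 21, 3 were higher and 0 lower, where 16.3% of all genes tested were higher and 14.3% lower. The 3 were Usp17la, at a log2 fold change of 1.37, Usp17lb, at 1.56, and Usp17le. Zscan4e had a mean of 16.9 CPM in WT siGLO, 2.43 CPM in Pds5a-KO siGLO, 8.93 CPM in Pds5b-KO siGLO and 17 CPM in Pds5a-KO siPds5b, with log2 fold changes of 2.7 against siStag1 and 3.18 against siStag2. Usp17le had 7.03 CPM in WT siGLO, 0.985 CPM in Pds5a-KO siGLO, 4.79 CPM in Pds5b-KO siGLO and 12.9 CPM in Pds5a-KO siPds5b, and was higher than in WT siPds5b by 0.96 on the log2 scale (adjusted p = 0.0094 by edgeR).

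**Figure D3:**
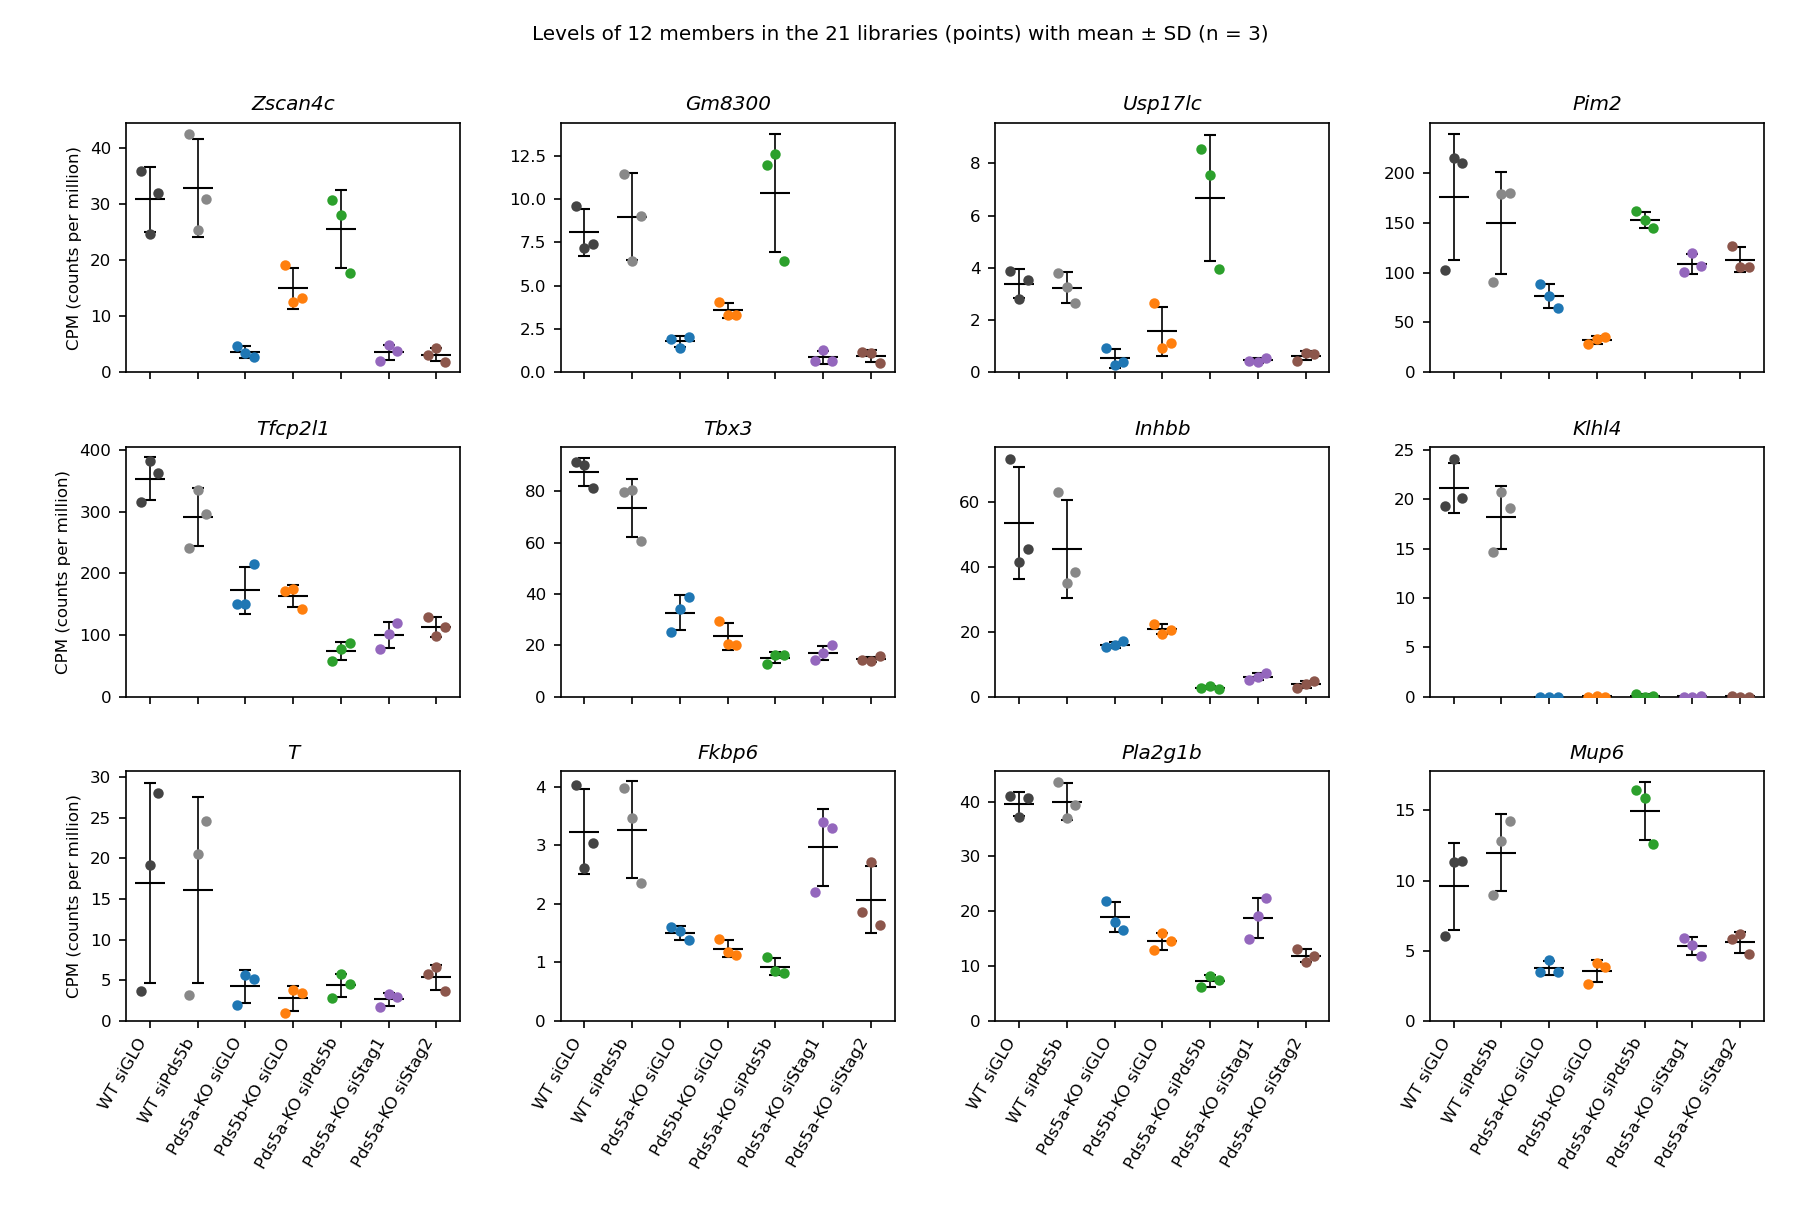
CPM of 12 members in each of the 21 libraries (points), by condition, with the mean (bar) and SD (whisker, n = 3). Zscan4c, Gm8300 and Usp17lc are low in Pds5a-KO siGLO, intermediate in Pds5b-KO siGLO and high in Pds5a-KO siPds5b. Tfcp2l1, Tbx3 and Inhbb are lower in Pds5a-KO mESCs with siPds5b, siStag1 or siStag2 than with siGLO. Klhl4 lies near 0 in every knockout library.

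Over all members, 16 were higher and 8 were lower with siPds5b than with siStag1 in Pds5a-KO mESCs, where 3.83% of all genes tested were higher and 3.54% lower. Against siStag2, 16 were higher and 1 was lower, where the shares were 2.04% and 1.92%. Both comparisons, and that with WT siPds5b, share the 3 Pds5a-KO siPds5b libraries, so a member called in more than 1 of them is not independent evidence. Besides the 11 genes of the 2-cell-like list, the members called higher in both were BC080695, Gm12794 (Pramel19 in RefSeq), Gm13119 (Pramel31 in RefSeq) and Mup6, a major urinary protein gene. BC080695 had 4.59, 3.09 and 2.16 CPM with siPds5b, 0.433, 0.446 and 0.549 CPM with siStag1 and 0.202, 0.231 and 0.256 CPM with siStag2, with log2 fold changes of 2.74 (SE 0.34) and 3.79 (SE 0.39). BC080695, Gm12794 and Gm13119 shared 55.3%, 47.3% and 38.6% of their 50-base stretches with other genes, so their counts have the same uncertainty. Mup6 had 16.4, 15.9 and 12.6 CPM with siPds5b, above the 4.64 to 6.18 CPM of the 6 libraries with siStag1 or siStag2, and log2 fold changes of 1.46 (SE 0.21) and 1.40 (SE 0.21). Klhdc7a, a kelch domain gene, was called against siStag1 alone and Tgm3, a transglutaminase, against siStag2 alone, at 1.25 (SE 0.24) and 0.88 (SE 0.16). Whether the 2 comparisons differ for these genes was not tested.

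The 8 members lower with siPds5b than with siStag1 were Fkbp6, Pla2g1b, Accsl, Pou2f3, Mras, Serpinb6c, Tcl1 and Ooep. Fkbp6, an immunophilin family gene needed in male meiosis, had 1.09, 0.853 and 0.824 CPM with siPds5b and 2.21, 3.40 and 3.29 CPM with siStag1, with no overlap and a log2 fold change of -1.70 (SE 0.28, adjusted p = 0.000183 by edgeR). With siStag1 it was at 91.8% of its WT siGLO mean, against 46.6% in Pds5a-KO siGLO. Pla2g1b, a secreted phospholipase A2, had 6.17, 8.27 and 7.47 CPM with siPds5b, 15, 19.064 and 22.4 CPM with siStag1 and 13.1, 10.7 and 11.9 CPM with siStag2. It was lower with siPds5b in both comparisons, by log2 fold changes of -1.40 (SE 0.14) and -0.73 (SE 0.15). Accsl and Pou2f3, a POU domain transcription factor, had log2 fold changes of -1.23 (SE 0.25) and -1.02 (SE 0.26) against siStag1.

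Single libraries decided some of these calls. Gm12794 lost its call against siStag1 without siPds5b replicate 1 or 2 or siStag1 replicate 1 or 3, at log2 fold changes of 2.24 to 2.71, and its call against siStag2 without any library other than siPds5b replicate 3, at 2.15 to 2.57. Klhdc7a lost its call without siStag1 replicate 1, at 1.1. Among the lower members, Pou2f3 and Ooep each lost the call against siStag1 without any 1 of 5 libraries, at -0.79 to -1.12 and -0.39 to -0.52. Mras lost it without siPds5b replicate 1 or 3, at -0.88 and -0.93, Accsl without siStag1 replicate 3, at -1.14, and Serpinb6c without siPds5b replicate 2, at -0.80. The number lower than with siStag1 was 5 on leaving out siPds5b replicate 2, siPds5b replicate 3 or siStag1 replicate 3, and 9 at most. The call of Pla2g1b against siStag2 was lost without siPds5b replicate 1, siStag2 replicate 1 or siStag2 replicate 3, at -0.63 to -0.72. Libraries with the same number deviated together in siPds5b and siStag1. A fit that blocked on that number called 21 members higher than with siStag1 and 13 lower. The share of all genes called by that fit is not given. The block added Inhbb, Arl14epl, Dhrs3, 1700097N02Rik and Myo1g as lower and Vim, Irgm2, Xaf1, Plagl1 and Serpinb9 as higher.

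**Figure D4:**
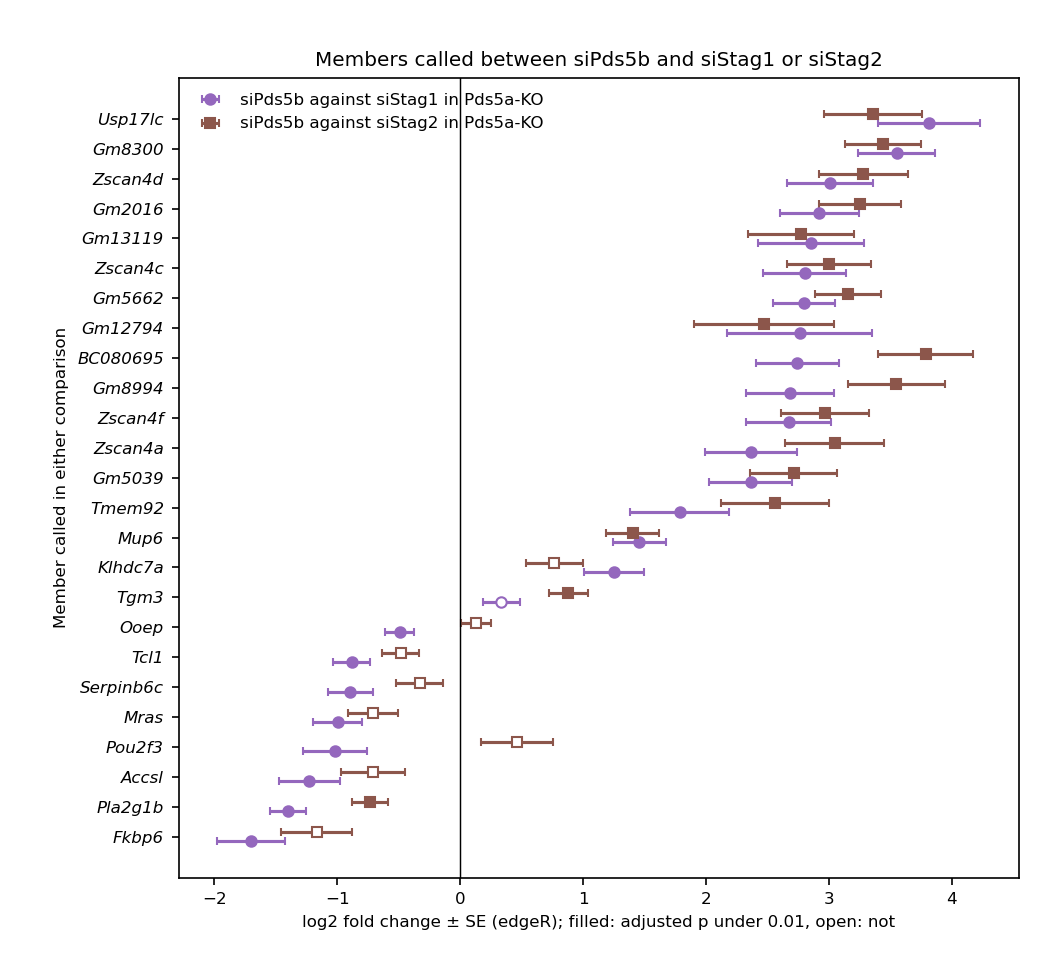
Log2 fold changes with SE (edgeR) of the 25 members called in at least 1 of the comparisons of siPds5b with siStag1 (circles) and with siStag2 (squares) in Pds5a-KO mESCs, filled where the adjusted p was under 0.01. The 2-cell-like genes, BC080695, Gm12794 and Gm13119 lie between 1.79 and 3.82 in both comparisons, and Fkbp6 and Pla2g1b lie to the left of 0.

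Between siStag2 and siStag1 in Pds5a-KO mESCs, edgeR called 0 members higher and 2 lower with siStag2, where 0.167% of all genes tested were higher and 0.227% lower. At an unadjusted p under 0.05, 6 were higher and 15 lower, and DESeq2 called 0 higher and 4 lower. Shares over all genes for these counts are not given. Pou2f3 had 1.01, 1.5 and 1.38 CPM with siStag2 and 2.69, 3.40 and 4.69 CPM with siStag1, with a log2 fold change of -1.48 (SE 0.28, adjusted p = 0.00696 by edgeR). Ooep, a component of the subcortical maternal complex of the oocyte, had 12.1, 16.5 and 14.5 CPM against 19.0, 21.5 and 25.1 CPM, with a log2 fold change of -0.62 (SE 0.12, adjusted p = 0.00831 by edgeR). Both calls were lost on leaving out single libraries: that of Ooep without any 1 of the 6, and that of Pou2f3 without siStag1 replicate 2 or 3 or any 1 of the siStag2 libraries.

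Of the naive pluripotency genes, Tfcp2l1, Tbx3 and Tcl1 were members and were among the 6 with the highest WT siGLO CPM. Tfcp2l1, a transcription factor of the naive network, had 316, 383 and 363 CPM in WT siGLO, 151, 151 and 216 CPM in Pds5a-KO siGLO and 171, 175 and 143 CPM in Pds5b-KO siGLO. It had 58.4, 78.0 and 86.9 CPM in Pds5a-KO siPds5b, below every library of the single knockouts, and 242, 336 and 296 CPM in WT siPds5b. Its log2 fold change between the siPds5b conditions was -2.01 (SE 0.18, adjusted p = 2.31e-07 by edgeR). Its means in Pds5a-KO mESCs with siStag1 and siStag2 were 99.4 and 114 CPM, also below every Pds5a-KO siGLO library. Tbx3, a T-box transcription factor, had 12.7, 16.4 and 16.4 CPM in Pds5a-KO siPds5b against 79.8, 80.3 and 60.5 CPM in WT siPds5b, and fell by 2.32 (SE 0.17). Tcl1, a coactivator of AKT kinases, had 11, 13.9 and 16.1 CPM against 56.8, 68.6 and 56.6 CPM, and fell by 2.19 (SE 0.15). Tcl1 was also lower with siPds5b than with siStag1, by a log2 fold change of -0.88 (SE 0.15).

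Among the 27 naive pluripotency genes tested that were not members, 14 were lower and 2 higher in Pds5a-KO siPds5b than in WT siPds5b. In Pds5a-KO mESCs, 9 were lower and 0 higher with siPds5b than with siStag1. Over all genes tested, 14.3% were lower and 16.3% higher in the first comparison, and 3.54% lower and 3.83% higher in the second. Esrrb, a nuclear receptor of the naive network, had a mean of 538 CPM in WT siGLO, 299 CPM in Pds5a-KO siGLO and 331 CPM in Pds5b-KO siGLO. Its mean in Pds5a-KO mESCs was 114 CPM with siPds5b, 212 CPM with siStag1 and 183 CPM with siStag2. It fell by 2.10 in Pds5a-KO siPds5b against WT siPds5b. Spp1, which encodes osteopontin, fell by 0.66 in the same comparison. Dppa5a had a log2 fold change of -0.28 (adjusted p = 0.046 by edgeR) and Mkrn1 of 0.08 (adjusted p = 0.54 by edgeR).

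Inhbb, which encodes the beta B subunit of activin and inhibin, was the member on the Nodal and activin list. It had 73.4, 41.6 and 45.6 CPM in WT siGLO, 15.2, 15.9 and 17.1 CPM in Pds5a-KO siGLO and 22.5, 19.3 and 20.5 CPM in Pds5b-KO siGLO. With siPds5b in Pds5a-KO mESCs it had 2.72, 3.15 and 2.27 CPM, which was 5.07% of the WT siGLO mean. It fell by 4.11 on the log2 scale against WT siPds5b (SE 0.28, adjusted p = 2.59e-09 by edgeR). Its means in Pds5a-KO mESCs with siStag1 and siStag2 were 6.14 and 3.78 CPM, also below every Pds5a-KO siGLO library. Of the 23 other genes tested on the list, which holds receptors, SMAD proteins and targets, 3 were higher and 2 lower. Over all genes tested, 16.3% were higher and 14.3% lower. Skil, a SMAD corepressor, was higher by 1.03 on the log2 scale, and Tdgf1, a Nodal coreceptor, had a log2 fold change of -0.17 (adjusted p = 0.13 by edgeR).

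The primitive streak and Wnt list held 4 members. T encodes the transcription factor brachyury, Wnt3 and Wnt8a are ligands, and Cdx1 is a caudal homeobox gene induced by Wnt. T had 3.74, 19.2 and 28.0 CPM in WT siGLO and 3.16, 20.5 and 24.6 CPM in WT siPds5b, so replicate 1 was the low library in both. It had 1.90, 5.66 and 5.17 CPM in Pds5a-KO siGLO, 0.990, 3.84 and 3.47 CPM in Pds5b-KO siGLO and 2.86, 5.71 and 4.53 CPM in Pds5a-KO siPds5b. Wnt8a had 5.15, 15.5 and 20.5 CPM in WT siPds5b and 2.72, 4.11 and 4.48 CPM in Pds5a-KO siPds5b. Against WT siPds5b, 0 of the 4 were called by edgeR, 2 had an unadjusted p under 0.05, and DESeq2 called Wnt8a. The log2 fold changes were -1.92 (SE 0.74) for T, -1.90 (SE 0.59) for Wnt8a, -1.01 (SE 0.60) for Cdx1 and -0.92 (SE 0.52) for Wnt3. Without WT siPds5b replicate 1, T and Wnt8a were called at -2.42 and -2.30, and Cdx1 and Wnt3 had values of -1.34 and -1.25 and were not called. Replicate 1 of Pds5a-KO siPds5b, also the lowest of its condition for each of the 4 genes, was kept in that fit. The larger falls are therefore not a balanced check. Of the 15 other genes tested on the list, 3 were higher and 4 lower, where 16.3% of all genes tested were higher and 14.3% lower. Lef1, a mediator of Wnt signalling, was higher by 1.39, and Notum, a Wnt antagonist, fell by 2.15.

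Members of other gene groups were fewer. The clade B serpins Serpinb1a, Serpinb6c and Serpinb9 are protease inhibitors clustered on chromosome 13, where Serpinb1a and Serpinb9 lie 152065 bases apart. Serpinb6c had 11.2, 13.9 and 11.9 CPM in WT siPds5b and 2.50, 2.35 and 3.45 CPM in Pds5a-KO siPds5b and fell by 2.19 (SE 0.17), while Serpinb1a fell by 2.59 (SE 0.33). Serpinb9 had 11.3, 23.9 and 20.5 CPM against 8.44, 12 and 12.1 CPM, with overlap and a log2 fold change of -0.81 (SE 0.36, adjusted p = 0.0749 by edgeR). Its level in Pds5b-KO siGLO was 0.834, 2.82 and 1.66 CPM. Of 5 other genes tested on the list, 1 was higher and 0 lower, where 16.3% of all genes tested were higher and 14.3% lower.

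Xaf1, an interferon-induced gene, was the member on the interferon-stimulated list. It had 11.6, 12.2 and 10.5 CPM in WT siGLO, 2.60, 2.29 and 2.12 CPM in Pds5a-KO siGLO and 0.261, 0.614 and 1.08 CPM in Pds5b-KO siGLO. It fell by 0.90 (SE 0.26, adjusted p = 0.00786 by edgeR) between the siPds5b conditions, a call that was lost without WT siPds5b replicate 2 or 3 or Pds5a-KO siPds5b replicate 1 or 2, at -0.71 to -0.94. Of the 36 other genes tested on that list, 14 were higher and 2 lower, where 16.3% of all genes tested were higher and 14.3% lower. Irgm2, an interferon-induced GTPase that the list does not hold, had 9.26, 8.59 and 8.70 CPM in Pds5a-KO siPds5b and 4.13, 11.6 and 9.35 CPM in WT siPds5b.

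Ggt1, the gamma-glutamyltransferase of glutathione breakdown, was the member on the one-carbon and amino acid list and fell by 1.73 (SE 0.18). Of 26 other genes tested there, 16 were lower and 2 higher, where 14.3% of all genes tested were lower and 16.3% higher. Tdh, threonine dehydrogenase, had a mean of 446 CPM in WT siGLO and 93.6 CPM in Pds5a-KO siPds5b and fell by 2.08 against WT siPds5b. Tuba3a, an alpha-tubulin of the testis, was the member on the germline list. It fell by 1.39 (SE 0.23), and by 1.02 without WT siPds5b replicate 1. Of 20 other genes tested there, 10 were higher and 3 lower, where 16.3% of all genes tested were higher and 14.3% lower.

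Other members with high WT levels fell as well. Mras, a Ras family GTPase, had 46.0, 32.8 and 36.0 CPM in WT siGLO and 9.70, 9.64 and 9.15 CPM in Pds5a-KO siGLO. It had 12.8, 9.78 and 9.88 CPM in Pds5b-KO siGLO. In Pds5a-KO siPds5b it had 2.72, 4.05 and 2.93 CPM, and fell by 3.32 (SE 0.19) against WT siPds5b. Its means in Pds5a-KO mESCs with siStag1 and siStag2 were 6.29 and 5.19 CPM, also below every Pds5a-KO siGLO library. Slc39a8, a zinc transporter, fell by 2.63 (SE 0.21), Cd59a, a complement inhibitor, by 2.37 (SE 0.28), Myo1f, an unconventional myosin, by 2.26 (SE 0.23), and Mapt, which encodes tau, by 1.44 (SE 0.14). Cd59a was at 14.9% of WT siGLO in Pds5a-KO siGLO, 12.6% in Pds5b-KO siGLO and 10.8% to 17.9% in the other Pds5a-KO conditions.

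Vim, the intermediate filament vimentin, Tnc, the matrix glycoprotein tenascin C, and Igfbp5 are also expressed by fibroblasts. Vim had 276, 334 and 376 CPM in WT siPds5b and 132, 159 and 167 CPM in Pds5a-KO siPds5b and fell by 1.14 (SE 0.15). Tnc fell by 2.00 (SE 0.52, adjusted p = 0.00548 by edgeR), a call that was lost without replicate 1 or 3 of either condition, at -1.77 to -1.98. Igfbp5 had a log2 fold change of -0.60 (SE 0.27) and was not called. The summed level of 8 fibroblast or feeder markers was 53.7 to 75.6 CPM in WT siGLO, 87.5 to 109 CPM in WT siPds5b, 17.1 to 73.0 CPM in Pds5a-KO siGLO, 15.5 to 22.4 CPM in Pds5b-KO siGLO and 24.1 to 68.5 CPM in Pds5a-KO siPds5b, and 15.4 to 48.6 CPM over the libraries with siStag1 or siStag2. None of the 8 was at or below 3 counts in every library, and Col1a1 and Col1a2 were the most abundant. In Pds5a-KO siPds5b, 1 of 6 tested was lower than in WT siPds5b, where 14.3% of all genes tested were lower. The median log2 fold change of the 6 was -0.97, against -0.00 over all genes tested. At an unadjusted p under 0.05, 4 of the 6 differed, with both directions counted. Their part in the levels of Vim, Tnc and Igfbp5 was not tested.

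Several members neighboured each other on mm10. How often genes at 2 CPM or more have such neighbours was not computed, so these pairs are a description. Within 500 kb of another member lay Accsl and Gm13889 on chromosome 2, Dclk1 and Sohlh2 on chromosome 3, Arhgef10l, Igsf21 and Klhdc7a on chromosome 4, Slc4a5 and Vax2os on chromosome 6, Hydin and Il34 on chromosome 8, Ggt1 and Gm5134 on chromosome 10, Mapt and Wnt3 on chromosome 11 and Pim2 and Slc38a5 on chromosome X, besides the Zscan4 genes, the genes on chromosome 12 and the pair Serpinb1a and Serpinb9. Dclk1, a doublecortin-like kinase, and Sohlh2, a germ cell transcription factor, lie 32407 bases apart, and their log2 fold changes against WT siPds5b were -0.97 (SE 0.29) and -0.54 (SE 0.15). The call of Dclk1 held only without WT siPds5b replicate 1 among the 6 omissions, at -0.65 to -1.06 in the other 5, and that of Sohlh2 was lost in 4 of 6, at -0.50 to -0.56. The X chromosome held 5 members, 4.39% of those with a position, against 3.40% of the genes at 2 CPM or more. These were Klhl4, Pim2, Slc38a5, an amino acid transporter, Apln, which encodes the peptide apelin, and Heph, a ferroxidase. The strand used in counting is not given in the sources used here, so reads of the antisense genes Gm13580 and Vax2os cannot be told apart from those of overlapping genes.

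The promoter windows of members were also searched on both strands for motifs of factors of the naive network and of interferon signalling. The ESRRB motif TCAAGGTCA was in 0 of 83 members with a window and in 0.466% of 27025 genes with one. The STAT3 motif TTCCNGGAA was in 2 members (2.41%, against 1.35%) and the KLF motif GGGTGTGG in 5 (6.02%, against 4.09%). The interferon response motif GAAANNGAA was in 12 members (14.5%, against 9.76%), with Inhbb, Irgm2, Serpinb9, Samd9l, Tnc, Usp17lc, Zscan4c and Zscan4f among them. The median number of CpG in the 300 bases was 11 in members and 8 in all genes with a window. Those genes were not filtered for expression, while members had at least 2 CPM in each WT siGLO library. The shares and medians are therefore not matched for expression. A match describes the letters in this window and no more.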

How the data were processed

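RNA-seq of mESCs was analysed in 7 conditions with 3 libraries each, grouped by their labels. Per the labels, libraries were poly-A selected and reads were mapped by the authors with STAR on mm10. The deposited values are raw counts per gene symbol, with no normalization. DESeq2 was the authors' test. The counting tool, annotation and strand setting are not given in the sources used here. The study calls the replicates behind its read counts biological. The labels do not say how they were separated, so p-values measure the spread between these libraries of 1 clone or line.

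CPM were computed from library totals of 17311090 to 23989198 counts. At this depth a group at 0 counts was given a floor of 3 counts, which covers counting error only. Differential expression was tested on the counts with edgeR 4.0.16 in R 4.3.3 (filterByExpr by condition, TMM, robust quasi-likelihood fit of the 21 libraries, F test, Benjamini-Hochberg adjustment over 14963 genes, calls at an adjusted p under 0.01) and checked on simulated data. The SE is the size of the log2 fold change divided by the square root of F. Shares over all genes tested are those of the edgeR fit at an adjusted p under 0.01. Counts by DESeq2, an unadjusted p, a replicate block or another alternative have no such share beside them. Contrasts that used libraries of the rule were not tested. The members, gene lists and tests were chosen with earlier results of these data known, and p-values were not adjusted over members alone. Named members were the 15 with the highest WT siGLO CPM, those on a gene list, those with 3 counts or fewer per library of a knockout, neighbours within 500 kb, the 5 largest called changes in each direction of each contrast, those nearest the threshold, and up to 10 of the members not called against WT siPds5b; others that are named in a set of counts or gained and lost calls were chosen after their values were seen.

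Libraries with the same replicate number deviated together for siPds5b against siStag1 in Pds5a-KO (correlation of deviations from the group means 0.289 to 0.616 over 12029 genes), and the blocked counts are given beside that comparison. Alternatives were DESeq2 1.42.0, RLE size factors, library size only, no filter, at least 10 counts in every library, only the conditions compared, a replicate block, other thresholds and leaving out each library. Shared sequence was measured as 50-base stretches of a transcript found in transcripts of other genes of GENCODE M21. Promoters were those of RefSeq, with 83 of 115 members matched. Figures were drawn with matplotlib 3.10.9 in Python 3.11.15.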

Additional observations from a re-analysis of the deposited data

How the results depend on the processing

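The number of members depended on the thresholds: it was 115 as reported, 67 at 5 CPM or more, 55 at a ratio of 0.4 and 210 at a ratio of 0.6, and 109 to 142 on leaving out 1 of the 9 libraries of the rule, the highest without WT siGLO replicate 1. For Pds5a-KO siPds5b against WT siPds5b, the number lower was 53 of the 80 members left when at least 10 counts were required in every library, and 73 to 83 on leaving out 1 library. The number higher was 1 (Usp17lc) with the replicate block or an adjusted p under 0.05, and 0 to 1 on leaving out 1 library. The median log2 fold change stayed between -1.69 and -1.45.

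For siPds5b against siStag1, the number higher was 10 of 80 with at least 10 counts in every library, 27 at an adjusted p under 0.05 and 13 to 17 on leaving out 1 library. The number lower was 5 in a model of only the conditions compared, 13 with the replicate block, 14 at an adjusted p under 0.05, 4 where folds under 1 in log2 size were left out, and 5 to 9 on leaving out 1 library. For siPds5b against siStag2, the number higher was 9 of 80 with at least 10 counts in every library and 15 to 17 on leaving out 1 library. The number lower was 5 with DESeq2, 2 without a filter, 0 with only the conditions compared, 3 with the replicate block, 8 at an adjusted p under 0.05, 0 where folds under 1 in log2 size were left out, and 0 to 2 on leaving out 1 library.

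For siStag2 against siStag1, the number higher was 1 with only the conditions compared or the replicate block. The number lower was 4 with DESeq2, 1 with library size only, 0 with only the conditions compared, 4 at an adjusted p under 0.05, 1 where folds under 1 in log2 size were left out, and 0 to 2 on leaving out 1 library. The cause of these differences was not tested, except that a stricter filter left fewer members to test. For Pds5a-KO siPds5b against WT siPds5b, the block gave 92 lower members, and same-number correlations were -0.13 to 0.20. They were -0.013 to 0.280 for siStag2 against siStag1. For siPds5b against siStag2 they were all positive, at 0.073 to 0.327, and the block gave 16 higher and 3 lower members. Over 87 values of named genes in single comparisons and 1282 alternative values of them, 93 lost the call and 25 gained it. Where the main or the alternative value was called, 0 changed sign. Sign changes of values called in neither were not counted. Members at a few CPM had SEs up to 0.59 among those called against siStag1, which limits what their folds show.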
